A study of Arabidopsis thaliana with 36 samples.

Results

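Over 0 to 72 h of prolonged darkness, the 150 genes described here had their highest mean transcript level at 6 h in Arabidopsis thaliana leaves of hml1-2 and wild type. Their mean level in these genotypes was lower before darkness and on each later day of it. They were chosen by measured values of 2 of the 3 genotypes. Levels are CPM, a gene's count as a part of all counts of its library, scaled to the same total for each library, and a gene's level in a condition was the mean log2(CPM + 1) over the 4 hml1-2 and WT libraries of that condition. Of 28774 loci in the files, 12189 had a mean of at least 5 CPM in these libraries at 6 h, and these were ranked by the smallest of 4 differences, 6 h minus 0, 24, 48 and 72 h, called the peak score below. The 150 highest scores, 3.77 to 0.95 with a median of 1.21 on the log2 scale, make up the set. The ivd1-2 libraries and all libraries of plants kept in the light and dark cycle had no part in the choice.

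RNA was sequenced from rosette leaves 9 to 12 of plants grown on soil for 5 weeks in days of 8 h light and 16 h dark, in 36 libraries, 2 for each of 18 groups. The genotypes were ivd1-2 and hml1-2, mutant lines named for isovaleryl-CoA dehydrogenase and hydroxymethylglutaryl-CoA lyase of leucine breakdown, and the Columbia wild type (WT, stock CS60000). Each genotype was sampled at 0, 6, 24, 48 and 72 h of prolonged darkness and after 72 h more of the light and dark cycle. Each mutant is a single line, and where the labels number replicates they do not say whether these came from separate plants, so p-values measure only the spread between these samples. No source used here gives the clock time of sampling. Since 6 h is not a whole number of days, the hour of the day and the time in darkness cannot be told apart at 6 h. In leaves sampled whole, more RNA per cell and more cells of a type cannot be told apart either.

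Libraries held 13638597 to 49398596 counts, and those of 6 h held 21305985 to 32280977. IVD (AT3G45300) averaged 4.30 to 340.9 CPM over the 6 ivd1-2 groups, against 16.9 to 1935 CPM over the WT groups, and was lower in ivd1-2 in each condition. HML1 (AT2G26800) averaged 54.3 to 64.6 CPM over the hml1-2 groups, against 86.1 to 121.8 CPM over the WT groups. The 5 markers of leaf mesophyll were detected in every library, and their summed level over the 3 genotypes was 37650 to 48760 CPM at 0 h, 11680 to 17400 at 6 h, 3580 to 4523 at 24 h, 901.5 to 1494 at 48 h and 438.5 to 1056 at 72 h of darkness, and 41060 to 48540 in the cycle. The part of this course in the values of the 150 genes was not tested. The flower genes AP3, AP1, SEP3 and AG and the root gene CASP1 stayed below 1 CPM in every library. The flower gene PI reached 13.6 CPM and the root gene CASP2 53.8 CPM. The 6 multiplex barcodes of the 6 h libraries were used in no other condition.

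As background, a leaf in short days stores starch in its chloroplasts by day and takes it apart by night. Enzymes phosphorylate the granule surface, remove the phosphate again, cut and debranch the chains, and release maltose and glucose. The circadian clock, a set of transcription factors that repress and activate one another over the day, sets when many of these genes are transcribed, and several of its repressors bind a short promoter sequence named the evening element. CBF (also DREB1) transcription factors, known for the response to cold, are gated by the clock as well; they bind the CCGAC core of dehydration-responsive elements and raise COR and galactinol synthase genes. Genes of a further kind respond to the loss of light and sugar and stay high as long as darkness lasts.

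The median level of the 150 genes, as log2(CPM + 1), lay at 4.81 and 5.30 in the ivd1-2 libraries of 6 h, at 5.18 and 5.36 in those of hml1-2, and at 5.18 and 5.40 in those of WT. In the libraries of every other condition it lay between 2.75 and 3.73. The genes took 2.59 to 2.72% of all counts in ivd1-2 at 6 h, 2.86 to 3.17% in hml1-2 and 2.87 to 3.38% in WT, against 0.533 to 1.04% in the libraries of other conditions. For hml1-2 and WT in darkness this is what the choice demands. In 140 of the 150 genes all 4 of their libraries of 6 h stood above the 16 of the other dark times and 0 h, which 5.57% of the ranked genes did; this count is fixed by the choice and is given as a description.

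**Figure D1:**
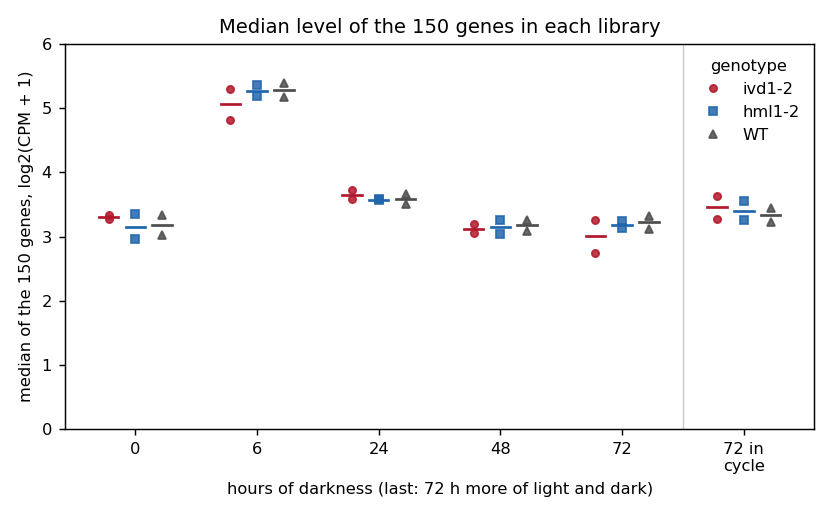
Median log2(CPM + 1) of the 150 genes (vertical axis) in each library by condition (horizontal axis), with 1 point a library and a bar at the mean of both. The libraries of 6 h lie at 4.81 to 5.40 in ivd1-2, hml1-2 and WT, and the libraries of all other conditions at 2.75 to 3.73.

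Does the peak recur in ivd1-2, whose libraries were not used? Each of the 150 genes passed the filter on low counts and was tested by the quasi-likelihood F test of edgeR. Benjamini-Hochberg adjustment ran over 19457 genes, with a threshold of 0.05. At 6 h, 111 of the 150 were higher than at 0 h and 0 were lower, where 18.9% of all genes tested were called higher and 20.6% lower. Among the genes the rule could rank, which share the floor of 5 CPM, 27.5% were higher. The median difference of the 150 was 1.80 log2 units, and that of all genes tested was -0.02.

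Against 24 h, 89 of the 150 were higher at 6 h and 0 lower, with a median of 1.4; 6.22% of all genes were higher and 11.5% lower, and 6.9% of the ranked genes were higher. Without replicate 2 of ivd1-2 at 24 h, 51 passed. Against 48 h, 119 were higher and 0 lower, with a median of 1.86, where 18.6% of all genes were higher, 18.1% lower and 19.2% of the ranked genes higher. Against 72 h, 116 were higher and 1 lower, with a median of 1.77, where 23.7% of all genes were higher, 22.8% lower and 25.7% of the ranked genes higher. With the ivd1-2 libraries of 6 and 72 h alone in the fit, 0 of the 150 passed against 72 h. These comparisons share the ivd1-2 libraries of 6 h and are not independent of one another.

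All 4 comparisons were passed, higher at 6 h, by 62 of the 150 genes (41.3%), against 0.858% of all genes tested and 1.25% of the ranked genes. A further 36 passed 3 of them, 32 passed 2, 15 passed 1 and 5 passed none. The count of 62 was 38 without replicate 1 of ivd1-2 at 6 h, 41 without replicate 2 of 24 h, 41 with the 5 ivd1-2 groups alone in the fit, and 0 with each pair of groups fitted alone. The mean log2(CPM + 1) of ivd1-2 was highest at 6 h in all but 4 of the 150, against 21.5% of the ranked genes. By the difference that edgeR fitted, 9 of the 150 were at or below 0 against 72 h alone. Both ivd1-2 libraries of 6 h stood above the other 8 of 0 to 72 h in 114, against 8.63% of the ranked genes. When the same rule was applied to ivd1-2 alone, 68 of the 150 (45.3%) were among its own 150 highest genes. For scale, the list from hml1-2 and WT took 150 of 12189 ranked genes. The peak score in ivd1-2 had a median of 1.02 and ran from 3.04 down to -1.62. Since members were picked for high scores in hml1-2 and WT, the choice favours a lower score in the genotype left out of it.

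**Figure D2:**
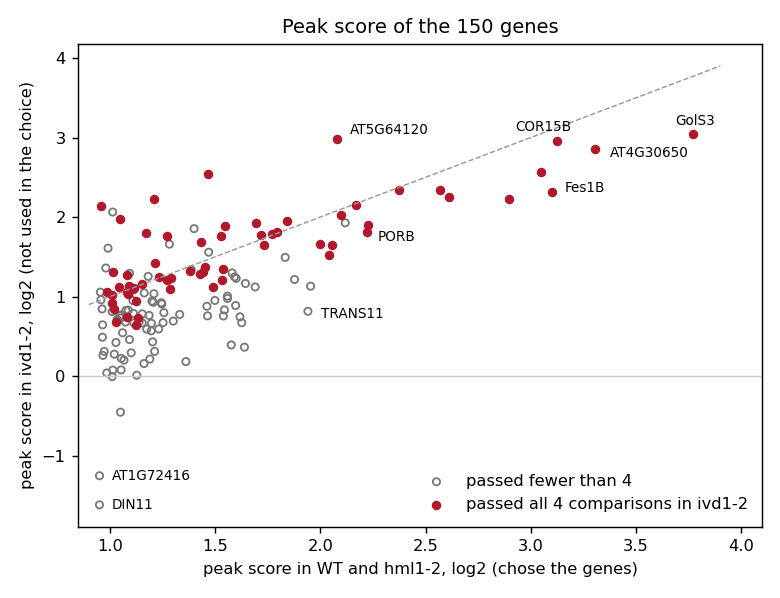
Peak score of each of the 150 genes in ivd1-2 (vertical axis, log2) against its score in WT and hml1-2 (horizontal axis, log2, the value that chose it); filled points passed all 4 comparisons in ivd1-2 and the dashed line marks equal scores. Most points lie above 0 on the vertical axis, GolS3 stands at 3.04, and DIN11 at -1.62 and AT1G72416 at -1.25 lie lowest.

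Genes of starch breakdown were the first group. Of 16 genes in the list, 7 were among the 150. They were SEX1 (GWD1, AT1G10760), the kinase that phosphorylates starch, SEX4 (AT3G52180), a phosphatase that removes that phosphate, AMY3 (AT1G69830), a chloroplast alpha-amylase, ISA3 (AT4G09020), the debranching enzyme, PHS1 (AT3G29320) and PHS2 (AT3G46970), the chloroplast and cytosolic glucan phosphorylases, and DPE1 (AT5G64860), which rebuilds short malto-oligosaccharides. In ivd1-2, AMY3, ISA3, PHS1 and SEX4 passed all 4 comparisons.

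AMY3 in ivd1-2 had 22.2 and 21.7 CPM before darkness, 187 and 182 after 6 h, 19.9 and 21.1 after 24 h, 25.3 and 32.5 after 48 h and 33 and 50.3 after 72 h, and at 6 h it had 182 and 282 CPM in hml1-2 and 203 and 239 CPM in WT. Each library of 6 h lay above every library of the other conditions. In ivd1-2 its level at 6 h was higher than at 0 h by 3.05 ± 0.43 (SE) log2 units (adjusted p = 8.39e-06) and than at 72 h by 1.90 ± 0.41 (adjusted p = 0.000769). ISA3 in ivd1-2 had 2.66 and 2.35 CPM before darkness, 43.8 and 39.3 after 6 h, 5.88 and 7.31 after 24 h, 9.31 and 10.8 after 48 h and 7.59 and 13.7 after 72 h. It had 54.9 and 49.6 CPM in hml1-2 and 53.4 and 54.8 CPM in WT at 6 h, and its difference in ivd1-2 was 4.02 ± 0.31 against 0 h (adjusted p = 3.91e-09) and 2.57 ± 0.28 against 24 h (adjusted p = 5.57e-06). After its peak ISA3 did not come back to its level of 0 h in ivd1-2, and was above it at 24, 48 and 72 h.

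SEX4 took the opposite course after 6 h. In ivd1-2 it had 12.6 and 8.55 CPM before darkness, 25.4 and 22.2 after 6 h, 3.5 and 4.02 after 24 h, 1.09 and 1.55 after 48 h and 0.847 and 1.17 after 72 h, and at 6 h it had 33 and 27.3 CPM in hml1-2 and 33 and 31.8 CPM in WT. The 2 groups of libraries at 6 and 0 h did not overlap, with a difference of 1.15 ± 0.29 (adjusted p = 0.00375), and the difference from 72 h was 4.31 ± 0.34 (adjusted p = 1.88e-08). Its levels at 24, 48 and 72 h were each lower than at 0 h in ivd1-2. PHS1 in ivd1-2 had 56.1 and 60.6 CPM before darkness, 170.0 and 205 after 6 h, 43 and 49.9 after 24 h, 34 and 64.9 after 48 h and 12.4 and 39 after 72 h, and its differences at 6 h were 1.67, 1.93, 1.75 and 2.61 against these 4 times, with adjusted p between 0.000513 and 0.0134.

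The other 3 starch genes repeated the peak in part. DPE1 in ivd1-2 had 8.75 and 5.49 CPM before darkness, 49.1 and 57.7 after 6 h, 21.2 and 21.3 after 24 h, 16.8 and 33.5 after 48 h and 11.6 and 34.3 after 72 h, higher at 6 h than at 0 h by 2.87 ± 0.50 (adjusted p = 0.000105). Against 24, 48 and 72 h its differences of 1.24, 0.92 and 0.96 did not pass, and its ivd1-2 libraries of 48 and 72 h spread widely. SEX1 had 102 and 103 CPM before darkness, 221 and 245 after 6 h, 126 and 145 after 24 h, 119.8 and 154.7 after 48 h and 64 and 119 after 72 h in ivd1-2 and passed against 0 h (1.17 ± 0.30, adjusted p = 0.00327) and 72 h (1.1 ± 0.29, adjusted p = 0.00479). PHS2 had 21.8 and 19.3 CPM at 6 h and 18.2 and 20.6 CPM at 0 h in ivd1-2, which overlap, with a difference of 0.06 ± 0.26 (adjusted p = 0.878). At 6 h PHS2 had 28.4 and 35.3 CPM in hml1-2 and 35.1 and 46.6 CPM in WT, above all 4 of their libraries of 0 h.

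**Figure D3:**
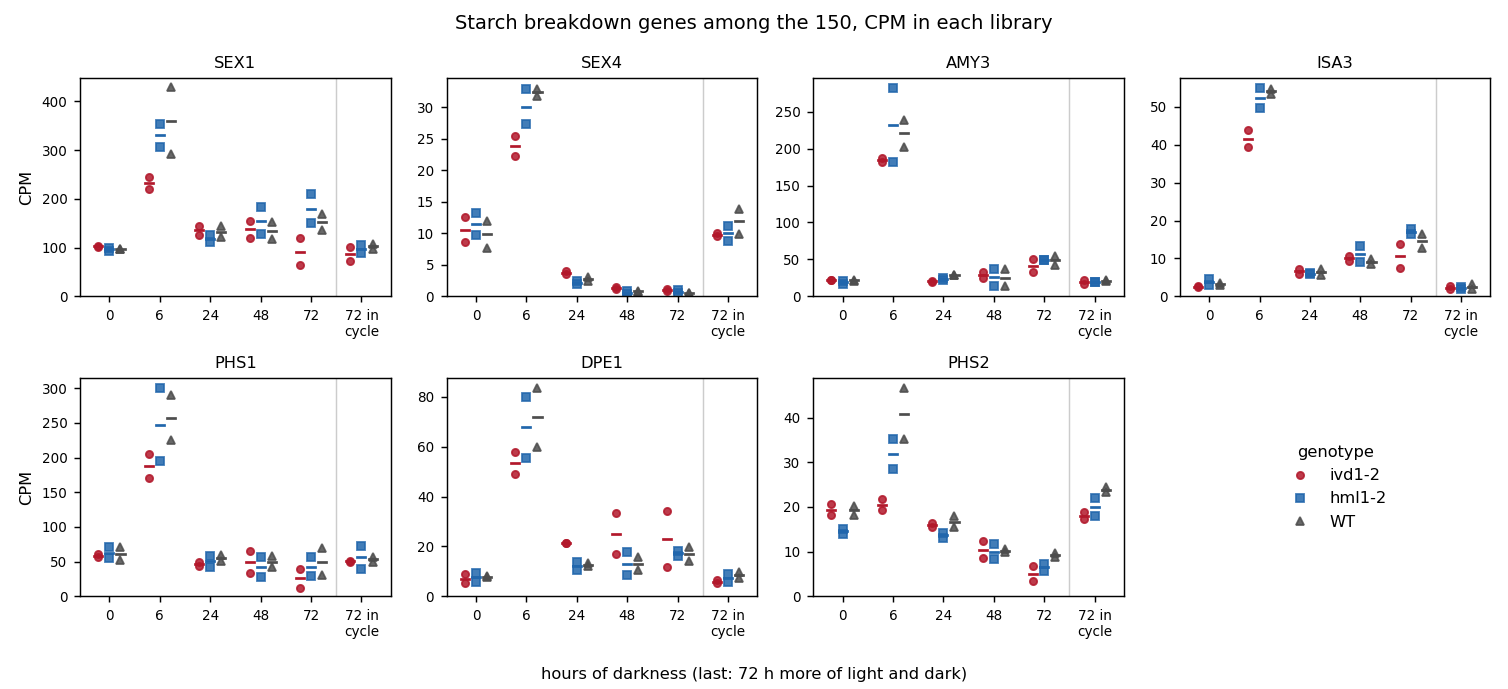
CPM (vertical axes, from 0) of the 7 starch breakdown genes among the 150 in each library by condition (horizontal axis), with 1 point a library and a bar at the mean of both. AMY3 and ISA3 are highest at 6 h in every genotype, SEX4 stands lower at 24, 48 and 72 h than at 0 h, and PHS2 in ivd1-2 at 6 h overlaps its level at 0 h.

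The rest of the starch list did not share this time course. Of its 15 genes tested in ivd1-2, 6 were higher and 5 lower at 6 h than at 0 h. The lower ones were BAM3, the main chloroplast beta-amylase, by a log2 difference of -3.68, BAM9 by -3.32, BAM6 by -6.35, the regulatory protein LSF1 by -1.58 and the maltose exporter MEX1 by -0.88. BAM3 averaged 92.5 CPM at 6 h and 1173 CPM at 0 h in ivd1-2. PWD, the kinase that acts after SEX1, was lower at 6 h than at 24, 48 and 72 h, by -1.77, -1.94 and -1.62. Against 24, 48 and 72 h, 5, 8 and 9 genes of the list were higher at 6 h and 3 were lower each time.

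Cold response genes were the next group. Of 11 genes in the list, 5 were among the 150. They were the transcription factor genes CBF2 (AT4G25470) and DREB1A (CBF3, AT4G25480), COR15A (AT2G42540) and COR15B (AT2G42530), whose proteins protect chloroplast membranes in freezing, and GolS3 (AT1G09350), a galactinol synthase of raffinose synthesis. GolS3 had the highest peak score of all 150. The labels state no cold treatment.

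GolS3 in ivd1-2 had 0.0841 and 0.285 CPM before darkness, 12.5 and 5.99 after 6 h, 0.0579 and 0 after 24 h, 0.237 and 0.0818 after 48 h and 0.0627 and 0.0689 after 72 h. At 6 h it had 28 and 19.1 CPM in hml1-2 and 22.8 and 27.2 CPM in WT, and over 0, 24, 48 and 72 h these genotypes had 0 to 1.37 CPM. Outside 6 h the gene was at 1.37 CPM or less in every library. In ivd1-2 it was higher at 6 h than at 0 h by 5.83 ± 0.88 log2 units (adjusted p = 1.98e-05) and than at 72 h by 6.80 ± 0.93 (adjusted p = 7.98e-06). Against 24 h, 558 counts stood over 2 counts, a ratio of 345.5 with a 95% counting interval of 95.2 to 2860.

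DREB1A had 275 counts over both ivd1-2 libraries of 6 h, or 5.14 and 3.93 CPM, and 3 counts over those of 0 h. The ratio was 74.9, with a 95% counting interval of 25.4 to 365.4. At 48 h ivd1-2 had no count of DREB1A, which puts 6 h at least 68.6-fold higher with a floor of 3 counts over the group. Against 24 h and 72 h the differences were 5.24 ± 0.89 (adjusted p = 0.00056) and 3.41 ± 0.79 (adjusted p = 0.00192). At 6 h it had 7.25 and 6.58 CPM in hml1-2 and 7.6 and 7.09 CPM in WT. These intervals and floors cover counting error only.

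CBF2 had 0.365 and 0.713 CPM before darkness, 7.83 and 4.41 after 6 h, 0.811 and 0.76 after 24 h, 0.522 and 0.532 after 48 h and 0.658 and 0.896 after 72 h in ivd1-2 and 10.3 and 6.38 CPM in hml1-2 and 9.09 and 8.17 CPM in WT at 6 h. Its differences in ivd1-2 were 3.55, 2.86, 3.35 and 2.72 against 0, 24, 48 and 72 h, with adjusted p between 2.92e-06 and 0.0001. COR15B had 4.99 and 3.06 CPM before darkness, 39.4 and 35 after 6 h, 1.82 and 1.05 after 24 h, 1.47 and 3.4 after 48 h and 2.41 and 3.03 after 72 h in ivd1-2, and both libraries of 6 h stood well above the rest. At 6 h it had 77.4 and 79.6 CPM in hml1-2 and 69.6 and 124 CPM in WT, and in ivd1-2 it was higher than at 0 h by 3.16 ± 0.63 (adjusted p = 0.000384) and than at 24 h by 4.61 ± 0.67 (adjusted p = 9.01e-05). COR15A had 58.6 and 29 CPM at 6 h and 21.4 and 12.3 CPM at 24 h in ivd1-2, a difference of 1.28 ± 0.69 that did not pass (adjusted p = 0.211). It passed against 0 h (2.37), 48 h (2.03) and 72 h (3.26).

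The ivd1-2 levels of GolS3, DREB1A, COR15A and COR15B at 6 h lay below all 4 of the hml1-2 and WT libraries. COR15A had 58.6 and 29 CPM in ivd1-2, against 147 and 84 CPM in hml1-2 and 129 and 118 CPM in WT, and as mean log2(CPM + 1) this was a difference of -1.48. GolS3 differed by -1.36. Because hml1-2 and WT at 6 h chose the members, these differences were not tested.

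**Figure D4:**
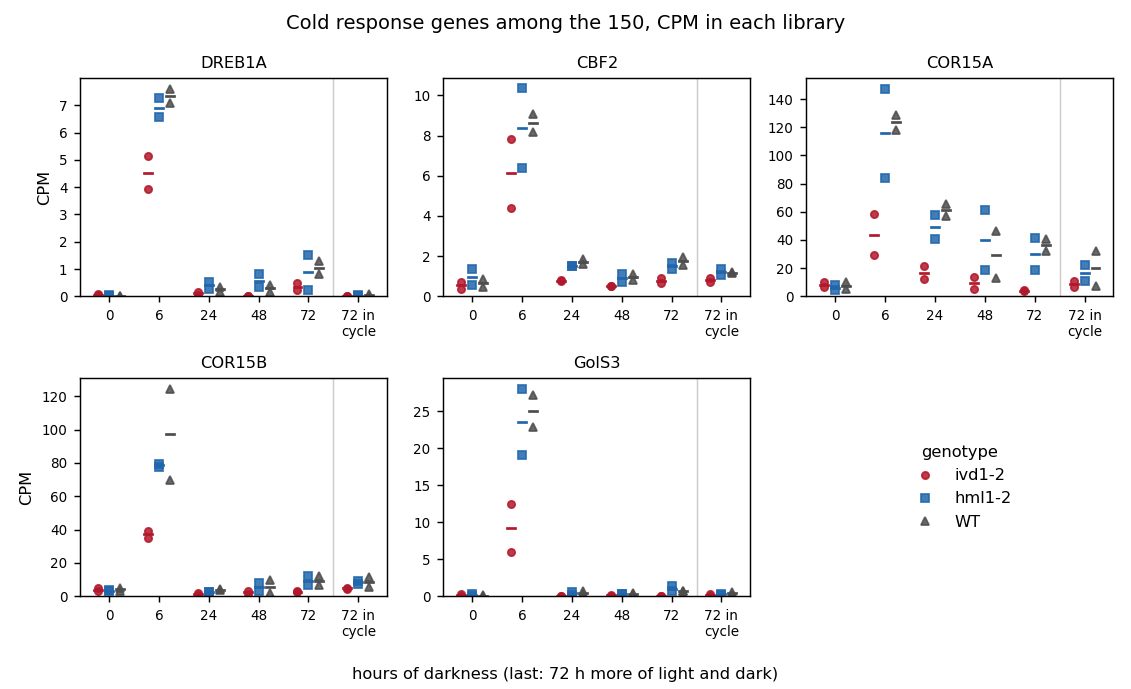
CPM (vertical axes, from 0) of the 5 cold response genes among the 150 in each library by condition (horizontal axis), with 1 point a library and a bar at the mean of both. All 5 are highest at 6 h, and in COR15A, COR15B, DREB1A and GolS3 both ivd1-2 points of 6 h lie below the hml1-2 and WT points of that time.

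Of the 11 cold genes, 9 were higher and 0 lower at 6 h than at 0 h in ivd1-2, and 6, 7 and 6 were higher than at 24, 48 and 72 h. Against these later times, 0, 1 and 1 were lower. Outside the 150, COR47, a dehydrin gene, was higher at 6 h than at 0 h by 4.62 but lower than at 48 h by -1.22 and than at 72 h by -1.21. RD29A passed all 4, with 5.96, 3.76, 1.09 and 0.90, and ranked 1288 by the rule. CBF1, which neighbours CBF2 and DREB1A in the genome, was at 0 CPM in ivd1-2 at 0 h, averaged 7.85 CPM at 6 h and 1.23 CPM at 24 h, and did not pass against 72 h. It ranked 534 by the rule. CBF genes are similar in sequence, and no source used here says how reads shared between them were counted.

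A pair of genes whose products are annotated as low temperature and salt responsive proteins followed the same course, AT4G30650 and AT4G30660. Both lie next to each other on chromosome 4, in the same direction. AT4G30650 had 0.645 and 0.428 CPM before darkness, 25.8 and 16.3 after 6 h, 2.87 and 1.28 after 24 h, 0.617 and 0.368 after 48 h and 0.439 and 0.0689 after 72 h in ivd1-2, and AT4G30660 had 1.15 and 0.998 CPM before darkness, 31.1 and 16.5 after 6 h, 3.59 and 2.48 after 24 h, 1.09 and 2.05 after 48 h and 1.13 and 2.79 after 72 h. At 6 h AT4G30650 had 34.3 and 28.9 CPM in hml1-2 and 34 and 35.2 CPM in WT, and AT4G30660 had 39.9 and 25.5 CPM in hml1-2 and 35.7 and 28.7 CPM in WT. All libraries of 6 h stood above those of other times in both genes. In ivd1-2 AT4G30650 was higher at 6 h than at 0 h by 5.20 ± 0.86 (adjusted p = 5.85e-05) and AT4G30660 by 4.42 ± 0.70 (adjusted p = 3.36e-05). AT4G30660 overlaps AT4G30662 on the other strand over 263 bases, and no source used here says whether the counting used strand, so reads of these genes cannot be told apart.

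To see what sequence such genes share that the choice did not use, the 300 bases before each gene's annotated start were searched on both strands for 10 short motifs. The evening element, AAAATATCT, occurred in 18 of the 150 promoters, 12% (95% Wilson interval 7.73 to 18.2%), against 3.01% of the ranked genes and 2.51% of all annotated genes. On the coding strand alone it occurred in 6% of the 150 and 1.61% of the ranked genes. The I-box, GATAAG, occurred in 26% and 15.3%, the morning element, CCACAC, in 13.3% and 7.08%, and the G-box, CACGTG, which reads alike on both strands, in 12% and 8.28%. For the dehydration-responsive core, CCGAC, the shares were 19.3% and 15.7%, and for the sugar starvation element, TATCCA, 22% and 17.4%.

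The remaining motifs had lower or similar shares. The CCA1-binding site, AAAAATCT, which the morning clock proteins also bind, occurred in 4.67% of the 150 and 8.28% of the ranked genes, the telo-box, AAACCCT, in 4% and 7.29%, the protein box, ATGGGCC, in 7.33% and 10.7%, and CACATG, named for hormone genes that rise at dawn, in 14% and 12.5%. The 150 promoters had a mean of 31.7% G and C bases, and those of the ranked genes 31.5%. None of the 10 motifs contains another of them. A match of letters is not a binding site, and no enrichment was tested. The Wilson intervals treat the promoters as independent, though the same-family neighbours AT4G30650 and AT4G30660 both hold the evening element. For that reason they are no test of a difference from the ranked genes.

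**Figure D5:**
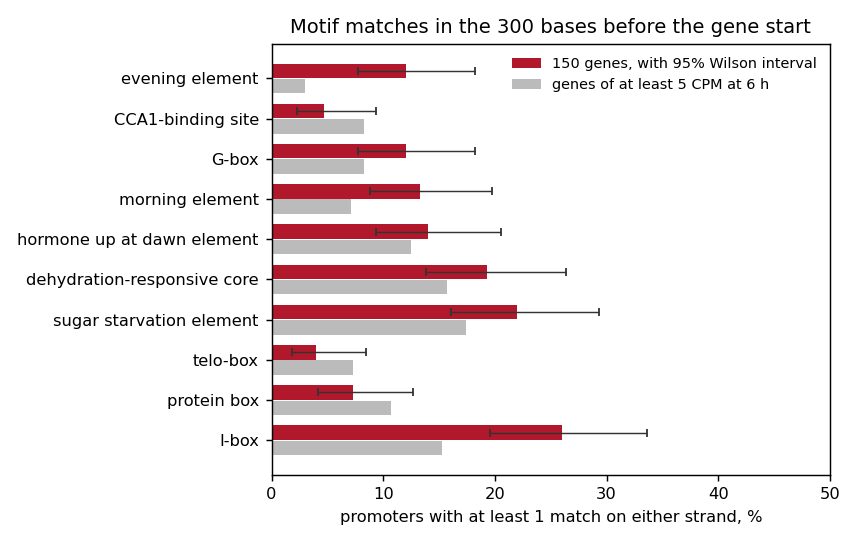
Percent of promoters (horizontal axis) with at least 1 match to each of 10 motifs (vertical axis) on either strand in the 300 bases before the gene start, for the 150 genes with 95% Wilson intervals and for all genes of at least 5 CPM at 6 h. The evening element stands at 12% of the 150 and 3.01% of the genes of at least 5 CPM. The intervals treat the promoters as independent and do not test a difference.

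The promoters below carry the evening element and belong to genes described here; sequences are from RefSeq, build TAIR10.1, 5′ to 3′ on the gene's strand, with the matches in capitals and matches to other motifs in lower case. That of AT4G30650 is chr4:14953904-14954203 on the plus strand, with the match 54 bases before the start. That of AT4G30660, chr4:14955115-14955372 on the plus strand, is cut to 258 bases where AT4G30650 ends, with the match 169 bases before the start. ISA3 is shown over chr4:5783609-5783908 on the plus strand and RbcX1 over chr4:2118618-2118917 on the minus strand. In both the motif lies on the opposite strand, so it reads AGATATTTT, 39 and 43 bases before the start. AT1G54410, a dehydrin gene at chr1:20310851-20311150 on the minus strand, has 2 matches, 124 and 81 bases before the start.
AT4G30650: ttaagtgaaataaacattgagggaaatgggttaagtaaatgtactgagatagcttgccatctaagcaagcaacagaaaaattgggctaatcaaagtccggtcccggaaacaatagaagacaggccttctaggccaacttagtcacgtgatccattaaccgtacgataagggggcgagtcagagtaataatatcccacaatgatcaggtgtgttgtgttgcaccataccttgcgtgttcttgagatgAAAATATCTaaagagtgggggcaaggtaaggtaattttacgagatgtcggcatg
AT4G30660: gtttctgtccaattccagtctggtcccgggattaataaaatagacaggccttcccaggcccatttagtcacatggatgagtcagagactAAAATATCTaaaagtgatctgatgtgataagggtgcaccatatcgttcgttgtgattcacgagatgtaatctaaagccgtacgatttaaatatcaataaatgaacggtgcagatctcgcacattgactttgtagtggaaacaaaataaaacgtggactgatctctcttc
ISA3: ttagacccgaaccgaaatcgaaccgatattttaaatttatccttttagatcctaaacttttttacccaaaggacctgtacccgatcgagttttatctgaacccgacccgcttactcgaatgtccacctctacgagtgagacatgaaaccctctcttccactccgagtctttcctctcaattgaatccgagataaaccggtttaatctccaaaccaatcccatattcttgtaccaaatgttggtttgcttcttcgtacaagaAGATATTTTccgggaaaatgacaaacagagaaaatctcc
RbcX1: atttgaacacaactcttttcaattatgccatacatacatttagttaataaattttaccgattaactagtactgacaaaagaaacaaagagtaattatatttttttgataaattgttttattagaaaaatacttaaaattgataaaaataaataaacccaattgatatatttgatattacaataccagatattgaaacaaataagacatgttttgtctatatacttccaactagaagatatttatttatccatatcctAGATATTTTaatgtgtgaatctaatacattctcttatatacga
AT1G54410: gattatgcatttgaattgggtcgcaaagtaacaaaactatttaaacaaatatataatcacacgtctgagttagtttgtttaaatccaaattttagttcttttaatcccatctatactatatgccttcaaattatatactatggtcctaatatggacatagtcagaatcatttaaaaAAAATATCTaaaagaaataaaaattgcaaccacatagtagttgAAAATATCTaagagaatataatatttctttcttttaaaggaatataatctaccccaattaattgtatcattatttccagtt

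DPE1 and GolS3 lack the evening element in this window and are shown for their G-boxes. The DPE1 promoter, chr5:25928880-25929179 on the minus strand, holds a pair of G-boxes 35 and 24 bases before the start. That of GolS3, chr1:3019339-3019638 on the plus strand, holds 1 G-box 96 bases before the start and 2 dehydration-responsive cores on the opposite strand, read as GTCGG, 216 and 205 bases before the start.
DPE1: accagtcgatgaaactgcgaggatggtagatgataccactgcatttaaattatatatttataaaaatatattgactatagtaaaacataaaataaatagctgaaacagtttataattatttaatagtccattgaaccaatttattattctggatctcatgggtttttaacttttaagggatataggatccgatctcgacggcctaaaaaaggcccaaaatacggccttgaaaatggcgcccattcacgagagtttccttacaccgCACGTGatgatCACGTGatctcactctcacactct
GolS3: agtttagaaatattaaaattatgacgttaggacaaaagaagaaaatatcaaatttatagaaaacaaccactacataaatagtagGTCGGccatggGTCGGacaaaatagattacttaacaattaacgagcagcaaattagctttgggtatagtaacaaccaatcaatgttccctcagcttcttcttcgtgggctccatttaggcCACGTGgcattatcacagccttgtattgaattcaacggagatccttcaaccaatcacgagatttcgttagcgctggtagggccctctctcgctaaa

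Of the clock genes, 1 of 13 in the morning list and 0 of 11 in the evening list were among the 150. The member was PRR9 (AT2G46790), a pseudo-response regulator that represses CCA1 and LHY. In ivd1-2 PRR9 had 1.07 and 1.43 CPM before darkness, 43.8 and 46.2 after 6 h, 1.3 and 1.2 after 24 h, 2.8 and 1.39 after 48 h and 10.2 and 14.9 after 72 h, and at 6 h it had 56.5 and 54.2 CPM in hml1-2 and 46.9 and 50.2 CPM in WT. Its libraries of 6 h stood above all others, and those of 72 h came next. In ivd1-2 it was higher at 6 h than at 0 h by 5.18 ± 0.49 log2 units (adjusted p = 6.6e-08), than at 24 h by 5.08 ± 0.48 (adjusted p = 1e-06) and than at 72 h by 1.60 ± 0.41 (adjusted p = 0.00321).

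The other clock genes did not peak at 6 h alone. In ivd1-2, 10 of the 13 morning genes were lower at 6 h than at 0 h, among them CCA1 at -3.77 and LHY at -5.25 log2 units. CCA1 averaged 63.7 CPM at 6 h and 855.4 CPM at 0 h. PRR7 was higher at 6 h than at 0 h by 4.03 but did not pass against 48 or 72 h. Of the 11 evening genes, 9 were higher at 6 h than at 0 h, and 7, 7 and 8 were lower at 6 h than at 24, 48 and 72 h. TOC1, which repeats this course, averaged 7.45, 85.8 and 227.7 CPM at 0, 6 and 24 h in ivd1-2. How far the state of the clock moves with the peak of the 150 genes was not tested.

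The member of the light signalling list of 14 genes was PAR1 (AT2G42870), which restrains growth in shade. In ivd1-2 PAR1 had 12.1 and 11.5 CPM before darkness, 106 and 86.5 after 6 h, 23 and 23.1 after 24 h, 12.2 and 48.1 after 48 h and 2.48 and 24.4 after 72 h, and at 6 h it had 108 and 156 CPM in hml1-2 and 127 and 133 CPM in WT. It passed against 0 h (3.01 ± 0.83, adjusted p = 0.00613) and 72 h (2.57 ± 0.81, adjusted p = 0.013), but not against 24 h (adjusted p = 0.0881) or 48 h (adjusted p = 0.137). Its ivd1-2 libraries of 48 and of 72 h differed widely from each other. Of the 14 genes, 6, 2, 2 and 6 were higher at 6 h than at 0, 24, 48 and 72 h in ivd1-2 and 5, 6, 3 and 1 lower.

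PORB (AT4G27440), the light-dependent enzyme that reduces protochlorophyllide in chlorophyll synthesis, had 107 and 82.4 CPM before darkness, 409.6 and 448 after 6 h, 123 and 119 after 24 h, 30.5 and 48.8 after 48 h and 16.1 and 42.7 after 72 h in ivd1-2. At 6 h it had 396 and 659.7 CPM in hml1-2 and 505 and 591 CPM in WT. It passed all 4 comparisons, with differences between 1.74 ± 0.41 at 24 h (adjusted p = 0.00529) and 3.61 ± 0.44 at 72 h (adjusted p = 2.34e-06). RbcX1 (AT4G04330), a chaperone of Rubisco assembly, had 4.15 and 5.77 CPM before darkness, 25.8 and 27.5 after 6 h, 3.53 and 5.15 after 24 h, 0.142 and 2.7 after 48 h and 0.533 and 2.21 after 72 h in ivd1-2 and 33.4 and 45 CPM in hml1-2 and 35.2 and 40.5 CPM in WT at 6 h, and also passed all 4, with adjusted p of at most 0.0227. RbcX1 overlaps AT4G04320 on the other strand over 141 bases, and PORB overlaps AT4G27450 over 71.

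LHB1B2 (AT2G34420), a light-harvesting chlorophyll a/b protein of photosystem II, was the most abundant of the 150, also per length, at 8218 CPM per kb of exon on average in hml1-2 and WT at 6 h. In ivd1-2 it had 3181 and 3438 CPM before darkness, 6329 and 6393 after 6 h, 1650 and 1643 after 24 h, 626 and 1204 after 48 h and 246 and 540.0 after 72 h. At 6 h it had 7303 and 8833 CPM in hml1-2 and 7332 and 10880 CPM in WT. The difference from 0 h in ivd1-2, 0.93 ± 0.47, did not pass (adjusted p = 0.122), while those from 24 h (1.87 ± 0.48, adjusted p = 0.00949) and 72 h (3.76 ± 0.52, adjusted p = 8.4e-06) did. LHB1B2 has close copies in the genome, and its level is less certain for that reason.

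The other members of the highest level were AT5G02160, AT1G54410, AT5G24490 and AT2G29670. AT5G02160, with no described product, had 378 and 408 CPM before darkness, 2193 and 2206 after 6 h, 1016 and 866 after 24 h, 1070 and 817 after 48 h and 506 and 846 after 72 h in ivd1-2, and passed against 0 h (2.47 ± 0.44, adjusted p = 0.000121) and 72 h but not against 24 or 48 h. AT1G54410 had 387 and 618 CPM before darkness, 1909 and 1659 after 6 h, 784 and 768 after 24 h, 861 and 882 after 48 h and 631 and 1084 after 72 h in ivd1-2 and passed all 4, by 1.81 ± 0.29 against 0 h (adjusted p = 3.45e-05) down to 0.81 ± 0.28 against 72 h (adjusted p = 0.0228). AT5G24490, a 30S ribosomal protein gene, had 1184 and 1437 CPM at 6 h and 766 and 751 CPM at 24 h, which did not differ past the threshold (0.71 ± 0.34, adjusted p = 0.162), and passed the other 3. In these 3 genes the ivd1-2 libraries of 24 h lay between those of 6 h and those of 0 h.

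AT2G29670, a tetratricopeptide repeat protein gene, and CDC6 (AT2G29680), which licenses DNA replication, lie side by side on chromosome 2 in opposite directions, starting 4019 bases apart. AT2G29670 had 129.5 and 258 CPM before darkness, 1055 and 1145 after 6 h, 240.4 and 220.4 after 24 h, 208 and 202 after 48 h and 149.8 and 295 after 72 h in ivd1-2. CDC6 had 2.41 and 4.92 CPM before darkness, 18.4 and 25.8 after 6 h, 1.13 and 1.99 after 24 h, 0.142 and 0.9 after 48 h and 0.815 and 2.83 after 72 h. Both passed all 4 comparisons, AT2G29670 by 2.49 ± 0.33 against 0 h (adjusted p = 3.93e-06) and CDC6 by 2.60 ± 0.64 (adjusted p = 0.00262). CDC6 at 48 h was lower than at 0 h in ivd1-2, while AT2G29670 did not pass there.

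Other genes of the highest peak scores had varied roles. Fes1B (AT3G53800), related to exchange factors of HSP70 chaperones, had 6.23 and 7.84 CPM before darkness, 83.7 and 61.4 after 6 h, 5.99 and 6.01 after 24 h, 5.08 and 6.83 after 48 h and 13.1 and 14.1 after 72 h in ivd1-2 and 87.3 and 93.9 CPM in hml1-2 and 84.6 and 85.2 CPM in WT at 6 h. It passed all 4 comparisons, by 3.35 ± 0.46 against 0 h (adjusted p = 6.12e-06). AT3G10020 had 19.6 and 20.6 CPM before darkness, 396 and 362 after 6 h, 77.4 and 63.9 after 24 h, 58.7 and 59.4 after 48 h and 68.6 and 80.2 after 72 h in ivd1-2, by 4.22 ± 0.28 higher at 6 h than at 0 h (adjusted p = 6.42e-10). In ivd1-2 AT3G10020 was above its level of 0 h at 24, 48 and 72 h, and Fes1B was above its own at 72 h.

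PLA2-ALPHA (AT2G06925), a phospholipase A2, had 3.42 and 3.56 CPM before darkness, 17.9 and 13.9 after 6 h, 2.58 and 3.29 after 24 h, 0.285 and 1.68 after 48 h and 0.188 and 0.379 after 72 h in ivd1-2, and WLIM2a (AT2G39900), a LIM domain protein gene, had 1.88 and 1.64 CPM before darkness, 13 and 8.72 after 6 h, 3.97 and 2.33 after 24 h, 0.712 and 0.696 after 48 h and 0.157 and 0.31 after 72 h. Both passed all 4 comparisons and were lower at 48 and 72 h than at 0 h. Their differences against 72 h were 5.55 ± 0.73 (adjusted p = 5.11e-06) and 5.27 ± 0.56 (adjusted p = 5.01e-07). AT5G23360, of a GRAM domain family and next to the member AT5G23350, had 16.1 and 6.28 CPM at 6 h and 1.37 and 1.57 CPM at 0 h in ivd1-2 and passed all 4 (against 0 h 2.9 ± 0.57, adjusted p = 0.000365).

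AT5G64120, a peroxidase gene, had 55.5 and 23.9 CPM in ivd1-2 at 6 h, against 26.3 and 21.5 CPM in hml1-2 and 42.5 and 12.1 CPM in WT. It passed all 4 in ivd1-2, with differences of 3.24, 3.62, 2.83 and 4.45 and adjusted p between 0.00259 and 0.0345, and replicate 1 of 6 h was the higher library in each genotype. TRANS11 (AT4G18270) had the lowest ivd1-2 score of the 20 members of the highest scores. It had 4.74 and 5.5 CPM at 6 h and 2.52 and 2.42 CPM at 0 h in ivd1-2, which did not pass (1.03 ± 0.48, adjusted p = 0.0961), and 8.12 and 8.65 CPM in hml1-2 and 7 and 9.95 CPM in WT at 6 h.

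From the auxin list of 13 genes the member was IAA19 (AT3G15540), a repressor of auxin responses, and from the ethylene list of 12 it was ACS8 (AT4G37770), an enzyme of ethylene synthesis. IAA19 in ivd1-2 had 5.78 and 3.49 CPM before darkness, 17.4 and 3.15 after 6 h, 3.88 and 1.45 after 24 h, 0 and 0.0818 after 48 h and 0.125 and 0 after 72 h. Its libraries of 6 and 0 h overlapped and did not pass (1.09 ± 0.68, adjusted p = 0.216). Against 48 h, 615 counts stood over 2, a ratio of 230.1 with a 95% counting interval of 63.4 to 1904. ACS8 had 0.673 and 0.143 CPM before darkness, 32 and 3.73 after 6 h, 3.01 and 1.37 after 24 h, 1.38 and 1.51 after 48 h and 5.02 and 2 after 72 h in ivd1-2 and 21.6 and 10.4 CPM in hml1-2 and 16.9 and 6.43 CPM in WT at 6 h. It passed against 0 h (5.22 ± 1.14, adjusted p = 0.00093), 24 h and 48 h, while its level of 6 h differed strongly between the libraries of each genotype.

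SAUR22, of a family of genes that auxin induces, and PRE1, a growth-promoting helix-loop-helix factor, were singled out after their values were seen. In ivd1-2 SAUR22 had 4.99 and 0.927 CPM before darkness, 23.5 and 10.3 after 6 h, 11.4 and 6.79 after 24 h, 0.285 and 0.573 after 48 h and 0.0941 and 0.0345 after 72 h, and was higher at 6 h than at 72 h by 7.68 ± 1.09 (adjusted p = 1.2e-05). PRE1 had 14.4 and 7.41 CPM before darkness, 16.5 and 9.11 after 6 h, 7.21 and 4.29 after 24 h, 0.38 and 1.6 after 48 h and 0.345 and 0.31 after 72 h. It did not pass against 0 h (0.19 ± 0.59, adjusted p = 0.836) but did against 72 h (5.02 ± 0.75, adjusted p = 2.06e-05). In the cycle PRE1 had 29.8 and 11.9 CPM in ivd1-2, 26.7 and 19.1 CPM in hml1-2 and 16.7 and 14.6 CPM in WT. These overlapped its levels of 6 h in each genotype, which were 17.8 and 21 CPM in hml1-2 and 19 and 16 CPM in WT. In the auxin list as a whole, 2, 0, 6 and 9 of 12 genes tested in ivd1-2 were higher at 6 h than at 0, 24, 48 and 72 h. Against the same times, 0, 0, 1 and 1 were lower. Of all genes tested, 18.9, 6.22, 18.6 and 23.7% were called higher and 20.6, 11.5, 18.1 and 22.8% lower. Counts of the other gene lists are to be read beside these shares.

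The lists of dark and sugar starvation and of branched-chain amino acid breakdown held none of the 150. All 14 starvation genes were higher at 6 h than at 0 h in ivd1-2, 0 were higher at 6 h than at 24, 48 or 72 h, and 1, 2 and 7 were lower. Of 12 breakdown genes, 10 were higher at 6 h than at 0 h, 0 were higher than at 24, 48 or 72 h, and 1, 6 and 7 were lower. No gene of either list was thus called lower later in darkness than at 6 h.

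After 6 h the 150 genes did not all come back to their level of 0 h. In ivd1-2 at 24 h, 35 of the 150 were higher than at 0 h and 8 lower, where 24.5% of all genes were called higher and 23.3% lower. At 48 h, 33 were higher and 34 lower, with 27.7% and 30.6% of all genes called. At 72 h, 49 were higher and 42 lower, with 31.7% and 32.7% of all genes called. These shares of the 150 lie near or below those of all genes. Without replicate 1 of ivd1-2 at 0 h the higher ones were 23, 17 and 26 at 24, 48 and 72 h. Those at 24 h were 23 without replicate 2 of 0 h and 17 without replicate 1 of 24 h, and those at 48 h were 16 without replicate 2 of 48 h. Over the 3 later times, 23 members were higher than at 0 h each time, 7 were lower each time and 43 passed at none. The other 77 passed at some of these times but not all, and no member passed in both directions. The same counts over all genes are not given here, so these only describe the members.

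Among the 23 that stayed above 0 h were DPE1, ISA3, AT3G10020, AT5G02160 and AT1G54410, described above, as well as the catalase gene CAT1. BAT1, an amino acid transporter, and BGAL10, a beta-galactosidase, also stayed above and were named after their values were seen. The 7 that fell below 0 h each time were SEX4, the aldolase gene FBA5, AT1G70820, the cytochrome P450 gene CYP71B26, AT3G55240, AT1G17350 and MIR167d (AT1G31173), the precursor of a microRNA that targets auxin response factors. Apart from SEX4 and MIR167d these too were named after their values were seen. AT1G70820 had 9.31 and 8.7 CPM before darkness, 19.2 and 18.1 after 6 h, 0.203 and 0.147 after 24 h, 0 and 0.0409 after 48 h and 0.314 and 0.138 after 72 h in ivd1-2. Against 48 h, 1135 counts stood over 1 count, a ratio of 849.3 with a 95% counting interval of 152.1 to 33580.

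Plants kept for 72 h more in the light and dark cycle had no part in the choice in any genotype. In ivd1-2, 105 of the 150 were higher at 6 h of darkness than in these plants and 0 lower, with a median of 1.71, where 18.8% of all genes were called higher, 19.6% lower and 26.8% of the ranked genes higher. For 2 of the 150 the difference was at or below 0, with the lowest at -0.693. GolS3 had 0.296 and 0.0411 CPM in the ivd1-2 libraries of the cycle, AMY3 21.9 and 17.2 CPM and PRR9 1.18 and 0.864 CPM, levels like those of 0 h. Against ivd1-2 at 0 h, 0 of the 150 passed in either direction, as did 0% of all genes tested; at an unadjusted p under 0.05, 1 member and 237 of all genes differed.

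Did the mutants differ from WT in these genes outside the values of the choice? Between hml1-2 and WT at 6 h, whose difference the rule did not use, 0 of the 150 passed in either direction, where 0% of all genes were called higher and 0.00514% lower. At an unadjusted p under 0.05, 0 members and 82 of all genes differed. With 2 libraries a group, a count of 0 does not show that the genes were alike. In the cycle, 0 of the 150 differed between hml1-2 and WT, with 0.00514% of all genes called each way, and 2 members at an unadjusted p under 0.05. Between ivd1-2 and WT in the cycle 0 passed as well, with 0.00514% of all genes called higher and 0.0103% lower; 8 members and 831 of all genes had an unadjusted p under 0.05, DESeq2 called 1 member higher, and a fit of these groups alone called 3.

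At 6 h the mean level of ivd1-2 was below that of hml1-2 and WT together in 116 of the 150 genes. The choice favours this direction and it was not tested. The same count over the ranked genes is not given here, so it describes the members only. The members furthest above were AT3G51660, a tautomerase gene, by 1.61 on the log2(CPM + 1) scale, GSTF2 (AT4G02520), a glutathione transferase, by 1.51, and AT1G15125, named after its values were seen, by 1.48. GSTF2 had 1054 and 1833 CPM in ivd1-2 at 6 h, against 413 and 596 CPM in hml1-2 and 477 and 484 CPM in WT. Before darkness it had 284 and 333 CPM in ivd1-2, 917.5 and 80.4 CPM in hml1-2 and 550.5 and 96.3 CPM in WT. In hml1-2 and in WT, replicate 1 of 0 h thus lay above both libraries of 6 h. AT3G51660 in hml1-2 had 54.8 and 1.27 CPM before darkness and 35.2 and 15.6 CPM at 6 h. GSTF2 overlaps TOC159 on the other strand over 1442 bases. The 11 genes of the salicylate defence list summed to 378.4 and 1149 CPM in ivd1-2 at 6 h, 91.2 to 117 CPM in hml1-2 and 70.4 to 76.9 CPM in WT, and none of them was among the 150. In the other conditions the sum ran from 43.5 to 1796 CPM over all libraries. Their part in these levels was not tested.

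Several members did not repeat the peak in ivd1-2 and were high in 1 ivd1-2 library of 72 h, replicate 1. The salicylate defence genes summed to 1751 CPM in that library and to 54.3 CPM in replicate 2. DIN11 (AT3G49620), an oxygenase gene first named for its induction in the dark, had 519 CPM in replicate 1 of 72 h and 0.0689 CPM in replicate 2, against 11.5 and 3.7 CPM at 6 h. Its difference of -5.31 ± 2.31 did not pass (adjusted p = 0.0643). At 6 h DIN11 had 14.4 and 1.05 CPM in hml1-2 and 14.2 and 0.61 CPM in WT, high in replicate 1 alone. AT1G72416, a DnaJ-domain protein gene, was the single member lower at 6 h than at 72 h, with 16.8 and 5.79 CPM at 6 h, 73.5 and 8.23 CPM at 72 h and a difference of -2.08 ± 0.62 (adjusted p = 0.00933). Without replicate 1 of 72 h it was 0.20.

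CAT1 (AT1G20630), the transcription factor gene ERF6 (AT4G17490), AR781 (AT2G26530), HMGS (AT4G11820) of the mevalonate pathway and AT3G51660 also had a mean difference from 72 h at or below 0 in ivd1-2, and each was above 0 without that library. CAT1 in ivd1-2 had 224 and 273 CPM at 6 h and 571 and 64.3 CPM at 72 h, and the 4 libraries of hml1-2 and WT at 72 h had 52.5 to 58.2 CPM. ERF6 had 25.3 and 2.83 CPM at 6 h and 33 and 0.93 CPM at 72 h. ATRAD17 (AT5G66130) and ARL2 (AT1G59980), related to a gravity-response protein, were also at or below 0, ATRAD17 at -0.12 ± 0.44 against 72 h and ARL2 at -0.09 ± 0.31 against 24 h and -0.10 ± 0.31 against 48 h. MIR167d was the member at or below 0 against 0 h, with 5.92 and 4.35 CPM at 6 h, 4.15 and 12.5 CPM at 0 h and a difference of -0.69 ± 0.60 (adjusted p = 0.389). Without replicate 1 of 72 h, 100 of the 150 were higher at 6 h than at 72 h and 68 passed all 4 comparisons.

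The threshold of the list falls where scores lie close together. Just inside were GSTF2 at 0.96, the glucosidase gene PEN2 at 0.96, AT4G06534, AT1G72416 and DIN11, the last 2 at 0.95, and just outside were PTI1-4 at 0.95, AT2G17880, IQD11, AT2G45850 and AT5G61660, at 0.94. Genes near the limit are thus no different by score from those left out.

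By the wording of their annotated products, 8 of the 150 were found as transcription factors (5.33%, against 3.71% of the ranked genes). This wording missed CBF2, DREB1A and ERF6, called transcription factor genes above, so 8 is too low. How many ranked genes it missed is not known, so these shares cannot be compared. By wording, 9 were kinases or phosphatases (6%, against 6.52%) and 1 belonged to ubiquitin or F-box proteins (0.667%, against 4.34%). For auxin, 3 (SAUR22, SAUR23 and IAA19) were named (2%, against 0.478%). A product of unknown function was annotated for 17 (11.3%, against 7.7%). Of the 150, 149 code for protein. The median exon length was 1617 bases, against 1886 in the ranked genes. They lie on all chromosomes, 32, 26, 32, 30 and 30 on chromosomes 1 to 5.

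Among the 150, 7 pairs were direct neighbours, 14 genes in all. Beside AT4G30650 and AT4G30660, CBF2 and DREB1A, AT2G29670 and CDC6, and AT5G23350 and AT5G23360, these were COR15B and COR15A with 7 bases between them, SAUR22 and SAUR23 with 692, and AT5G66580 and AT5G66590. Both genes of the COR15, CBF, AT4G30650, SAUR and AT5G23350 pairs belong to the same family, and reads shared by near-identical stretches make their counts less certain. Of the 150 genes, 35 overlap another gene of the files, 29 of them on the opposite strand, where the counts of both are less certain; COR15B overlaps AT2G42520 over 468 bases.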

How the data were processed

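Values are raw counts per gene, 1 set a library, as deposited by the authors without normalization. Per the submitters' processing notes, the tools were Trimmomatic 0.30, TopHat 1.4.1, SAMtools 0.1.19, Cuffdiff 2.1.1 and HTSeq, on TAIR10; whether the counting used strand is stated nowhere in the sources used here. Per the labels' protocols, RNA came from an RNeasy kit and libraries from a stranded TruSeq kit. Rows of unassigned reads were left out of library totals; per library, 0.582 to 1.47% of counts had no feature and 1.70 to 2.36% were ambiguous.

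CPM was computed over library totals, with a pseudocount of 1 where logged, and chose the members. The members and gene lists were chosen with earlier results of these data known. Counts were tested in R 4.3.3 with edgeR 4.0.16 (quasi-likelihood, TMM factors 0.881 to 1.17, limma 3.58.1), 1 coefficient for each of 18 groups over all 36 libraries, 18 residual degrees of freedom, and Benjamini-Hochberg adjustment. The filter (filterByExpr: counts of at least 10, totals of at least 15) left 19457 genes; those removed held 0.0119% of counts. SE is the log2 difference over the root of F. Steps were tested on simulated data. DESeq2 1.42.0 was an alternative, as were other filters, fits on fewer groups, each library left out, and a replicate term.

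Named genes were the 20 highest scores, the 5 highest levels at 6 h, members in a list, up to 10 members not above 0 in an ivd1-2 comparison, and the 5 genes on either side of the list's limit. Any other member was named after its values were seen. Figures used Python 3.11.15 with pandas 2.3.3, scipy 1.17.1 and matplotlib 3.10.9. Promoters are from the RefSeq annotation of TAIR10.1; coordinates were not carried over to the counts. No columns of other samples were used.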

Additional observations from a re-analysis of the deposited data

How the results depend on the processing

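Each group had 2 libraries. Counts were simulated at the depths and spread of these libraries, with 200 genes changed in ivd1-2 at 6 h. Against 0 h, 22.2% of changes of 1 log2 unit and 59.6% of changes of 2 units were recovered, with 83 calls among 19049 genes. In the measured libraries 18.9% of genes were called higher and 20.6% lower against 0 h. With so few calls the adjustment was stricter in the simulation, so its shares do not give the recovery in the measured data. A gene that did not pass may still have changed. Whether depth or spread kept any single gene from passing was not tested. Fitting only the groups compared left 0 of the 150 passing higher at 6 h than at 72 h and 0 passing all 4 comparisons; it gave 56 higher and 14 lower at 24 h than at 0 h, 14 higher and 24 lower at 72 h than at 0 h, and 3 higher in ivd1-2 than in WT in the cycle, where DESeq2 gave 1. With the 5 ivd1-2 groups alone, 41 passed all 4. With a mean of at least 5 CPM as the filter, 22 were higher at 24 h than at 0 h. On the coding strand only, the evening element stood at 6% and the I-box at 10.7%. Leaving out 1 library gave 90 to 110 genes higher at 6 h than at 0 h, 51 to 81 than at 24 h, 95 to 116 than at 48 h, 90 to 119 than at 72 h, 85 to 107 than in the cycle, and 38 to 74 in all 4. Against 0 h it gave 17 to 33 higher and 6 to 7 lower at 24 h, 16 to 23 and 25 to 37 at 48 h, and 26 to 44 and 33 to 51 at 72 h. It left 0 in the comparisons that had 0, and kept 136 to 148 members.

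A fit with the replicate number as a block gave 120, 106, 132, 128 and 117 genes higher at 6 h than at 0, 24, 48 and 72 h and in the cycle, and 81 in all 4, against 111, 89, 119, 116, 105 and 62. The number was not taken as a pairing: the deviations of same-numbered libraries correlated at -0.129 to 0.442. Membership kept 141 with TMM, 135 from WT only, 129 from hml1-2 only, 120 from replicate 1, 117 from replicate 2, 136 and 129 with floors of 1 and 10 CPM, and 143 with a pseudocount of 0.25; alternatives of the test were not run for it, since it uses none.

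Differences of single genes named in the text kept their direction and their side of the threshold in 1719 recomputed values, passed anew in 74, no longer passed in 160 and reversed in 26. Leaving out 1 library put the difference of 6 h from 72 h at -6.35 to 6.45 for DIN11, -3.0 to 0.20 for AT1G72416, -1.44 to 1.72 for CAT1, -1.61 to 1.75 for AR781, -2.76 to 3.64 for ERF6, -0.97 to 0.52 for HMGS and -1.30 to 4.62 for AT3G51660, the upper end each time without replicate 1 of ivd1-2 at 72 h. It put ATRAD17 at -0.62 to 0.70, ARL2 at -0.32 to 0.81 and ACS8 at -0.10 to 2.94 against 72 h, DIN11 at -0.53 to 10.7 and ARL2 at -0.10 to 0.20 against 48 h, ARL2 at -0.045 to 0.075 against 24 h, and IAA19 at -0.47 to 1.93 and MIR167d at -1.27 to 0.34 against 0 h. Filtered at 5 CPM, PHS2 was at -0.009 against 0 h and ARL2 at 0.01 against 24 h. With the 5 ivd1-2 groups alone, ATRAD17 was at 0.018 against 72 h and ARL2 at 0.053 and 0.066 against 24 and 48 h; ATRAD17 was at 0.022 with only the groups compared, and AT3G51660 at 0.56 with the replicate block. The cause of these reversals was not tested.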
